A study of Homo sapiens with 10 samples.

Results

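The 9 genes described here encode the core of MHC class I antigen presentation. They were taken by name, as the genes that all 10 count tables list under the symbol HLA-B, HLA-C, HLA-E, HLA-F, B2M, TAP1, TAP2, TAPBP or NLRC5. They are 9 of 59386 listed genes, and all 9 passed the filter on low counts, which kept 16899 genes. The RNA came from VCaP, an epithelial cell line of human prostate cancer, and was sequenced in a study of a long non-coding RNA and chromatin remodelers. SMARCA4, an ATPase of SWI/SNF complexes, was knocked down with siRNA A or siRNA B, and SMARCA1, an ATPase of ISWI complexes, with siRNA A or siRNA C. Each of the 5 groups (control and 4 siRNAs) had 2 libraries. Knockdown cells received 30 pmol siRNA with a lipid reagent and were harvested 72 h later, and the labels call the remaining cells only control, without naming their siRNA or dose. All cells are of 1 cell line, and the labels do not say whether replicates were separate cultures, so the p-values measure the spread between these libraries, which may be technical.

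MHC class I molecules show peptides from inside the cell to CD8 T cells at the cell surface. Proteasomes cut proteins into peptides, the transporter formed by TAP1 and TAP2 moves the peptides into the endoplasmic reticulum, and tapasin, the product of TAPBP, holds the transporter next to empty class I molecules so that they can be loaded. The class I molecule itself is a heavy chain encoded by an HLA gene, paired with the invariant light chain beta-2-microglobulin, the product of B2M. NLRC5 is a transactivator that binds no DNA on its own and switches on class I genes through factors held at their promoters. The pathway is inducible by interferons and is often low in tumors.

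Of the 9 genes, 7 lie in the MHC region of chromosome 6 (GRCh38, coordinates from the count tables). HLA-F was at chr6:29722775-29738528, HLA-E at chr6:30489509-30494194, HLA-C at chr6:31268749-31272130, HLA-B at chr6:31353872-31357188, TAP2 at chr6:32821833-32838770, TAP1 at chr6:32845209-32853816 and TAPBP at chr6:33299694-33314387. B2M was at chr15:44711487-44718851 and NLRC5 at chr16:56989485-57083531. HLA-E, HLA-F, B2M and NLRC5 are on the plus strand and the others on the minus strand. HLA-B, HLA-F and TAP1 share exonic bases with genes on the opposite strand, which had at most 45 counts in any library, and whether the counting used strand is not given in the sources used here.

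RefSeq promoter windows (250 bases before to 50 after the start, GRCh38.p14) were at hand for 7 of the 9 genes. HLA-E and NLRC5 had none. The windows were searched on both strands for an interferon-stimulated response element of the form GAAANNGAA or GAANNGAAA, 2 spacings that can overlap each other in 1 element. All 7 genes held a match in at least 1 window, as did 4729 of the 27305 genes with a window. Of all 35116 windows of the same length, 14.45% held a match. The stretches around the matches are shown because they are the letters these genes have in common. Capitals mark the matches, each stretch is written 5′ to 3′ on the strand of its gene, and a match is a description of letters and not a shown binding site.
HLA-B, chr6:31357306-31357354, minus strand: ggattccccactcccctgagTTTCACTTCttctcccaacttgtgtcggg
HLA-C, chr6:31272215-31272263, minus strand: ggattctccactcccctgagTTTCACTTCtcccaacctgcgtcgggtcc
HLA-F, chr6:29723259-29723307, plus strand: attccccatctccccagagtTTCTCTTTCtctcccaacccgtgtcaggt
B2M, chr15:44711353-44711407, plus strand: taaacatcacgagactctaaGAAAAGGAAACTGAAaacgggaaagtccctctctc
TAP1, chr6:32853803-32853857, minus strand: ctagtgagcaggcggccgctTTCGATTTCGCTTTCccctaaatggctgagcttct
TAP2, chr6:32838782-32838809, minus strand: ggctgggGAAGCGAAAGCGAAagctgcc
TAPBP, chr6:33314077-33314105, minus strand: tttggagGAAAGTGAAAGTGAAaggagga

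HLA-B and HLA-C held the same 9 matched letters, and their match began 155 and 151 bases before the start. In B2M, TAP1, TAP2 and TAPBP, 2 matches ran into each other and covered 14 or 15 bases. HLA-B also held the kappa B motif GGGATTCCC just upstream, which 0.384% of windows hold. B2M and TAP1 held another kappa B motif, GGACTTTCC, found in 0.370% of windows. TAP1 has 2 RefSeq windows, and the element stood in 1 of them, whereas the other held the GAS motif TTCNNNGAA (7.657% of windows). The core TGACG of the CRE (24.55% of windows) was found in HLA-B, HLA-C, B2M and TAP2, and the Y box CCAAT (34.61%) in HLA-B, HLA-C, HLA-F, B2M and TAP1.

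Total counts lay between 23898545 and 34667965 per library, and 3 counts, the most that a count of 0 leaves possible, equalled 0.0865 to 0.126 CPM (counts per 1000000, which for all genes below use TMM-scaled totals). The targeted genes followed the labels. SMARCA4 was at 242 and 267 CPM in the controls and between 13.3 and 25.2 CPM in its 4 knockdown libraries, and SMARCA1 was at 32.3 and 31.4 CPM in the controls and between 1.75 and 3.40 CPM in its own. SMARCA1 also stood higher in the 4 SMARCA4 knockdown libraries (57.4 to 83.7 CPM). The 9 markers of VCaP cells were present in all libraries, with a summed level of 8537 and 8747 CPM in the controls and 7049 to 9067 CPM in the knockdowns, TMPRSS2 and ERG among them. Of the 9 immune cell markers, PTPRC, CD3E, CD3D, MS4A1 and NKG7 had at most 1 count in any library and ITGAM at most 2. LYZ was called higher in SMARCA4 (3.26 on the log2 scale) and SMARCA1 knockdown (4.63), HLA-DRA was called higher in SMARCA1 knockdown, and CD14 was called lower in both (-1.36 and -0.67). The immune list as a whole summed to 2.34 and 2.38 CPM in the controls and 2.66 to 23.9 CPM in the knockdowns, most of the latter LYZ, and the part of these markers in the class I rises was not tested. Fibroblast and endothelial markers summed to 25.5 and 30.0 CPM in the controls, 20.5 to 37.6 CPM in SMARCA4 and 39.4 to 57.0 CPM in SMARCA1 knockdown. COL1A1 was called higher in SMARCA4 (0.74) and SMARCA1 knockdown (1.21). With SMARCA1 knockdown LUM (0.92) was called higher, and COL1A2 (-7.38, SE 1.70) and COL3A1 (-4.56, SE 1.13) were called lower. Fewer cells of a type and less RNA per cell cannot be told apart in such bulk libraries.

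All 9 class I genes were higher in SMARCA4 knockdown than in control and all 9 were higher in SMARCA1 knockdown. Each of the 8 knockdown libraries lay above both controls for every one of them, where 19.6% of the 16899 tested genes showed that pattern. With SMARCA4 knockdown the test called 9 of 9 higher and 22.8% of all tested genes (22.3% were called lower). With SMARCA1 knockdown it called 9 of 9 higher and 23.8% of all tested genes (23% were called lower). The median log2 fold change of the 9 genes was 4.47 in SMARCA4 and 4.42 in SMARCA1 knockdown, beside medians over all tested genes of 0.0022 and -0.0035. Both knockdowns were compared with the same 2 control libraries. The labels do not say whether these controls received siRNA, so loss of the target and receipt of siRNA cannot be told apart in these contrasts. Together the 9 genes took 0.0230% and 0.0224% of all counts in the controls and between 0.0906% and 0.374% in the knockdowns.

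**Figure D1:**
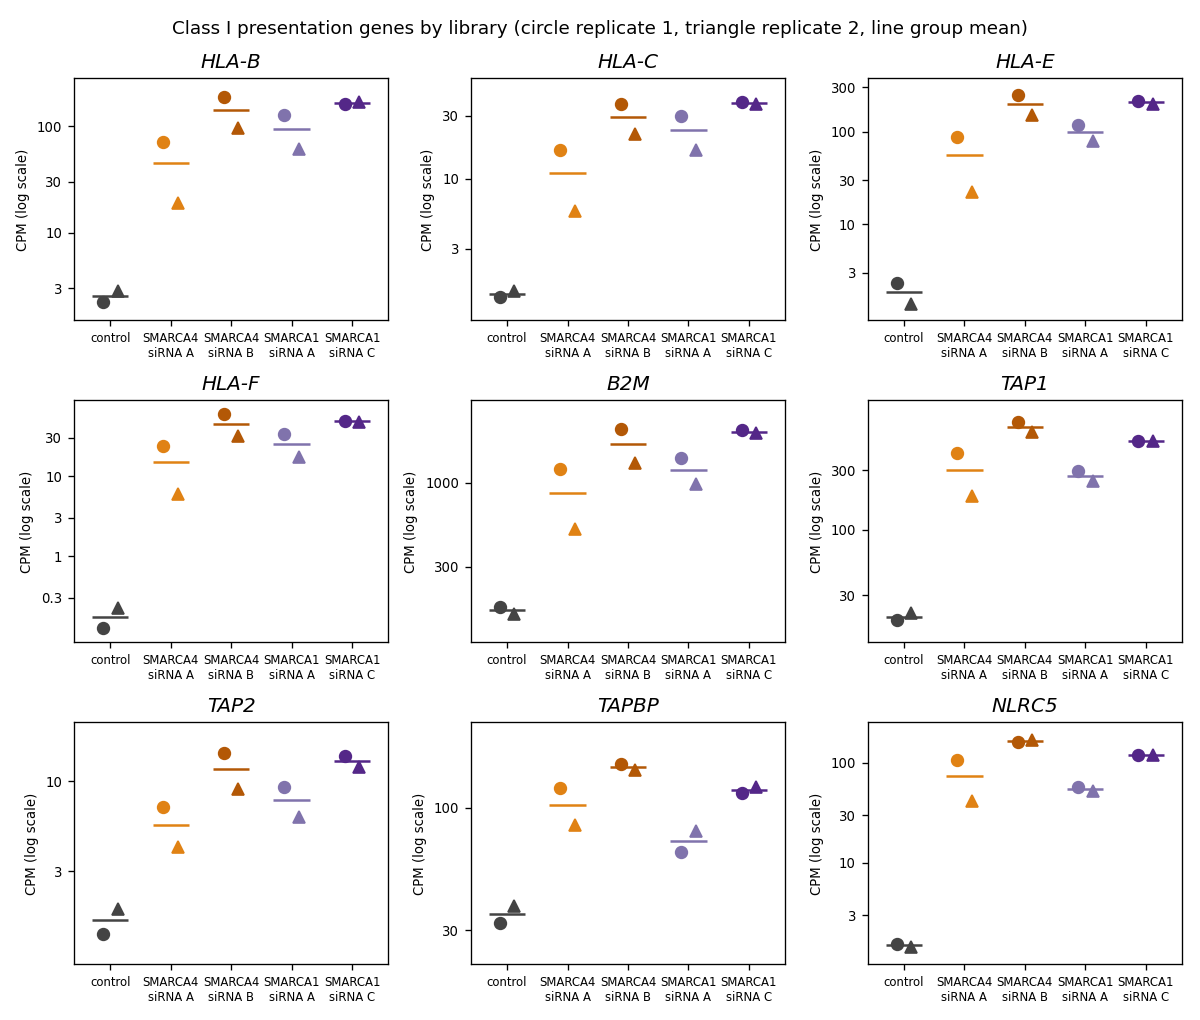
TMM-scaled CPM of each of the 9 genes on a log axis in the 10 libraries, by group, with circles for replicate 1, triangles for replicate 2 and a line at the group mean. Every knockdown library lies above both controls in all 9 panels, and SMARCA4 siRNA A replicate 2 is the lowest knockdown library in 8 of them.

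Among the heavy chains, HLA-B and HLA-C are classical class I genes that present peptides to T cells. HLA-B was at 2.26 and 2.86 CPM in the controls, at 70.6 and 18.9 CPM with SMARCA4 siRNA A, at 187 and 96.8 CPM with SMARCA4 siRNA B, at 128 and 60.5 CPM with SMARCA1 siRNA A, and at 163 and 171 CPM with SMARCA1 siRNA C. Its lowest knockdown value thus came from SMARCA4 siRNA A and stood well clear of the controls, while the 2 libraries of one siRNA differed widely except with SMARCA1 siRNA C. The log2 fold change was 4.95 (SE 0.64, adjusted p = 0.00022) in SMARCA4 and 5.61 (SE 0.66, adjusted p = 0.00017) in SMARCA1 knockdown, or 31.0-fold and 48.8-fold.

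HLA-C was at 1.30 and 1.45 CPM in the controls, at 16.4 and 5.72 CPM with SMARCA4 siRNA A, at 36.6 and 22.0 CPM with SMARCA4 siRNA B, at 30.0 and 16.5 CPM with SMARCA1 siRNA A, and at 38.1 and 36.4 CPM with SMARCA1 siRNA C. The libraries fell in an order much like that of HLA-B, without overlap of knockdown and control. Its log2 fold change was 3.70 (SE 0.51, adjusted p = 0.00030) in SMARCA4 and 4.42 (SE 0.51, adjusted p = 0.00016) in SMARCA1 knockdown. HLA-B and HLA-C are close paralogs and highly polymorphic, and reads were aligned to 1 reference haplotype, so how counts split between them is uncertain.

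HLA-E and HLA-F are non-classical heavy chains, and HLA-E is a ligand of receptors on natural killer cells. HLA-E was at 2.30 and 1.37 CPM in the controls, at 88.4 and 22.5 CPM with SMARCA4 siRNA A, at 250.2 and 151 CPM with SMARCA4 siRNA B, at 119 and 79.5 CPM with SMARCA1 siRNA A, and at 213 and 201 CPM with SMARCA1 siRNA C. SMARCA4 siRNA A replicate 2 was again the lowest knockdown library and lay far above both controls. The log2 fold change was 5.85 (SE 0.63, adjusted p = 8.1e-05) in SMARCA4 and 6.30 (SE 0.64, adjusted p = 8.6e-05) in SMARCA1 knockdown, or 57.8-fold and 78.5-fold.

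HLA-F came from near the limit of detection. It was at 0.125 and 0.223 CPM in the controls (3 and 6 counts), at 23.8 and 5.91 CPM with SMARCA4 siRNA A, at 58.9 and 31.9 CPM with SMARCA4 siRNA B, at 33.6 and 17.2 CPM with SMARCA1 siRNA A, and at 49.0 and 47.9 CPM with SMARCA1 siRNA C. In every knockdown library HLA-F had at least 188 counts. Its fitted log2 fold changes were 7.16 (SE 0.88, adjusted p = 0.00016) and 7.60 (SE 0.87, adjusted p = 0.00015), the largest of the 9 genes in each knockdown. The ratio of counts summed over libraries and divided by depth was 171 (95% counting interval 90.2 to 375) for SMARCA4 and 212 (112 to 464) for SMARCA1 knockdown. Such intervals cover counting error only.

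B2M, the light chain shared by all class I molecules, had the highest level per length of the 9 genes and rose least among the class I chains. It was at 169.8 and 152 CPM in the controls, at 1220.1 and 516 CPM with SMARCA4 siRNA A, at 2170 and 1329 CPM with SMARCA4 siRNA B, at 1418 and 978 CPM with SMARCA1 siRNA A, and at 2119 and 2043 CPM with SMARCA1 siRNA C. All knockdown libraries stood far above both controls. The log2 fold change was 2.94 (SE 0.36, adjusted p = 0.00015) in SMARCA4 and 3.29 (SE 0.36, adjusted p = 0.00013) in SMARCA1 knockdown, or 7.65-fold and 9.80-fold.

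The subunits of the peptide transporter differed in size of change. TAP1 was at 18.8 and 21.6 CPM in the controls, at 414 and 188 CPM with SMARCA4 siRNA A, at 727 and 604 CPM with SMARCA4 siRNA B, at 295 and 248 CPM with SMARCA1 siRNA A, and at 517 and 520.4 CPM with SMARCA1 siRNA C. For TAP1 both libraries of SMARCA4 siRNA B lay above all other libraries. The log2 fold change of TAP1 was 4.47 (SE 0.32, adjusted p = 9.0e-06) in SMARCA4 and 4.22 (SE 0.31, adjusted p = 1.5e-05) in SMARCA1 knockdown, or 22.2-fold and 18.6-fold.

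TAP2 was at 1.30 and 1.82 CPM in the controls, at 7.08 and 4.15 CPM with SMARCA4 siRNA A, at 14.7 and 9.08 CPM with SMARCA4 siRNA B, at 9.32 and 6.25 CPM with SMARCA1 siRNA A, and at 14.1 and 12.1 CPM with SMARCA1 siRNA C. TAP2 moved in the same direction as TAP1, without overlap of knockdown and control. Its log2 fold change was 2.38 (SE 0.33, adjusted p = 0.00034) in SMARCA4 and 2.69 (SE 0.33, adjusted p = 0.00022) in SMARCA1 knockdown. In the count annotation, 32.19% of the exonic length of TAP2 is shared with XXbac-BPG246D15.9, a gene on the same strand that had 0 counts in every library. Reads in the shared part may not have been assigned to either gene.

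TAPBP, which encodes tapasin, had the highest control level per length after B2M and the smallest rise. It was at 32.1 and 38.0 CPM in the controls, at 121 and 84.6 CPM with SMARCA4 siRNA A, at 154 and 145 CPM with SMARCA4 siRNA B, at 64.9 and 79.6 CPM with SMARCA1 siRNA A, and at 115 and 123 CPM with SMARCA1 siRNA C. The lowest of its knockdown values came from SMARCA1 siRNA A, not from SMARCA4 siRNA A as in the other 8 genes. The log2 fold change was 1.82 (SE 0.16, adjusted p = 2.9e-05) in SMARCA4 and 1.40 (SE 0.16, adjusted p = 0.00015) in SMARCA1 knockdown, or 3.53-fold and 2.64-fold.

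NLRC5, the transactivator, was nearly silent in the controls and had the smallest adjusted p of the 9 genes in each knockdown. It was at 1.55 and 1.45 CPM in the controls, at 107 and 41.3 CPM with SMARCA4 siRNA A, at 162 and 169 CPM with SMARCA4 siRNA B, at 57.6 and 52.9 CPM with SMARCA1 siRNA A, and at 119.9 and 120.3 CPM with SMARCA1 siRNA C. Its replicates were close to each other in 4 of the 5 groups, SMARCA4 siRNA A being the exception. The log2 fold change was 6.21 (SE 0.42, adjusted p = 6.6e-06) in SMARCA4 and 5.76 (SE 0.41, adjusted p = 1.2e-05) in SMARCA1 knockdown, or 73.8-fold and 54.3-fold.

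**Figure D2:**
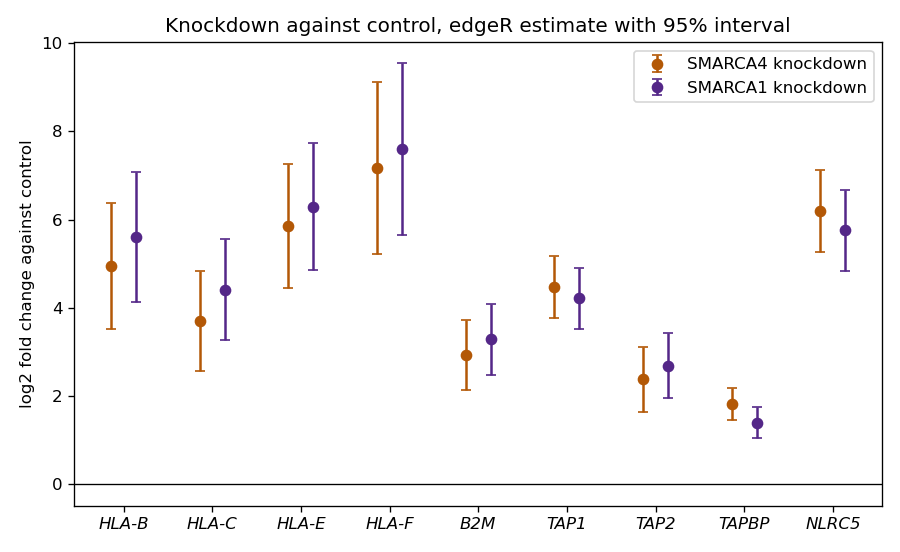
edgeR log2 fold changes of the 9 genes against control, with 95% intervals as bars, for SMARCA4 (orange) and SMARCA1 (purple) knockdown. All intervals lie above 0, from TAPBP at 1.82 and 1.40 to HLA-F at 7.16 and 7.60.

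Taken 1 siRNA at a time, 9 of 9 genes were again called higher with each of the 4 siRNAs. The share of all tested genes called higher was 17.4% with SMARCA4 siRNA A, 23% with SMARCA4 siRNA B, 18.5% with SMARCA1 siRNA A and 23.9% with SMARCA1 siRNA C. For NLRC5 the log2 fold changes were 5.62, 6.79, 5.20 and 6.32 in that order, and for HLA-E they were 4.92, 6.78, 5.77 and 6.82. The least of the 36 estimates was that of TAPBP with SMARCA1 siRNA A, at 1.04 (SE 0.18, adjusted p = 0.0022).

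SMARCA4 siRNA A replicate 2 stood apart from the other knockdown libraries, with the lowest value of 8 of the 9 genes, and SMARCA4 siRNA B replicate 1 had the highest value of 7. The targeted SMARCA4 was at 25.2 and 23.2 CPM in the siRNA A libraries, and the part of knockdown depth in their difference was not tested. The summed level of 25 interferon-stimulated genes differed between the same libraries, at 31095 and 14797 CPM. Without SMARCA4 siRNA A replicate 2, all 9 genes were still called higher in SMARCA4 knockdown, with log2 fold changes of 5.32 for HLA-B, 6.22 for HLA-E, 3.21 for B2M and 6.50 for NLRC5.

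Levels of different genes were compared per length, as RPKM (counts per 1000 bases of exon and per 1000000 counts, computed from the TMM-scaled totals). The length covers all annotated exonic bases of a gene, 5455 for B2M, 3012 for HLA-B and 12386 for NLRC5. It can exceed the length of the transcripts present, so orders and ratios between genes depend on it. Changes of 1 gene between libraries do not. TAP2 may also lack reads from the part it shares with another gene. In the controls the order was B2M (29.5 ± 2.25 RPKM, SD, n = 2), TAPBP (6.94 ± 0.82), TAP1 (4.34 ± 0.43), HLA-B (0.85 ± 0.14), HLA-E (0.63 ± 0.22), HLA-C (0.55 ± 0.043), TAP2 (0.24 ± 0.058), NLRC5 (0.12 ± 0.0056) and HLA-F (0.040 ± 0.016). HLA-B, HLA-E and HLA-C overlapped with their neighbours in this order, and the others did not. In SMARCA4 knockdown the order was B2M (239.9 ± 124 RPKM, SD, n = 4), TAP1 (104 ± 50.7), HLA-E (43.8 ± 33.2), HLA-B (31.0 ± 23.4), TAPBP (24.97 ± 6.16), NLRC5 (9.68 ± 4.80), HLA-C (8.05 ± 5.14), HLA-F (6.98 ± 5.11) and TAP2 (1.37 ± 0.70), and all neighbours overlapped except TAPBP and NLRC5. SMARCA1 knockdown placed B2M (300.5 ± 99.2 RPKM, SD, n = 4) first and TAP2 (1.64 ± 0.54) last, with NLRC5 (7.08 ± 3.03) just above TAP2. On these means TAPBP stood below TAP1, HLA-E and HLA-B in both knockdowns, but with SMARCA4 siRNA A alone TAPBP (20.3 RPKM) stood above HLA-E (18.98 RPKM) and HLA-B (14.8 RPKM).

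**Figure D3:**
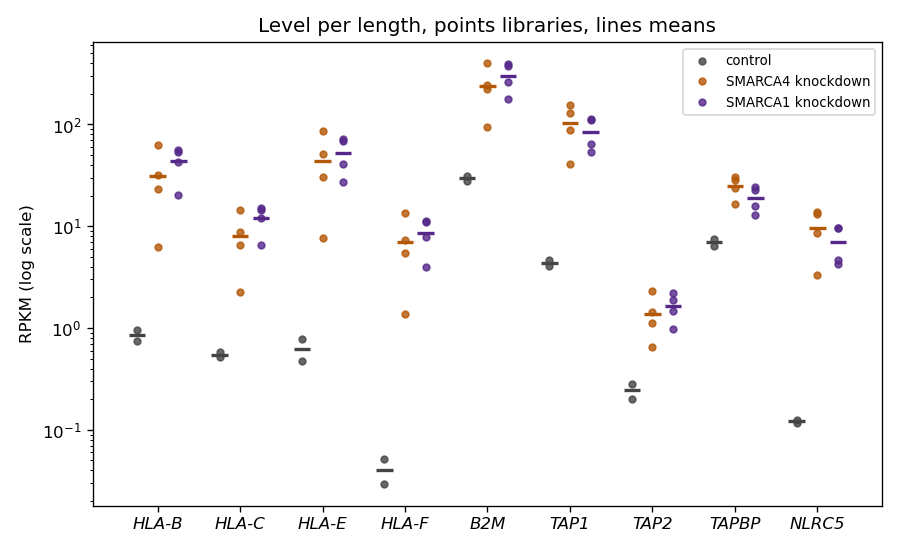
RPKM of the 9 genes on a log axis, with a point for each library and a line at the mean of control (grey, n = 2), SMARCA4 knockdown (orange, n = 4) and SMARCA1 knockdown (purple, n = 4). B2M is the highest mean in each set, TAP2 is the lowest in both knockdowns, and HLA-F is the lowest in the controls.

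Because the genes rose by unequal factors, the proportions of the transcripts changed. The RPKM of B2M was 14.95 and 13.64 times the summed RPKM of HLA-B, HLA-C, HLA-E and HLA-F in the controls, and between 2.26 and 5.37 times in the knockdown libraries. The highest of the knockdown ratios was that of SMARCA4 siRNA A replicate 2, the library with the smallest rises. The sum leaves out other class I heavy chains and compares RNA, not protein. The RPKM of TAP1 was 19.9 and 16.3 times that of TAP2 in the controls, between 62.4 and 91.4 times in SMARCA4 knockdown and between 43.5 and 58.9 times in SMARCA1 knockdown, 3 sets of libraries without overlap. Reads from 32.19% of the length of TAP2 may be missing, so the size of this ratio is uncertain. Among the heavy chains, HLA-B was 1.45 and 1.64 times HLA-C in the controls and between 2.74 and 4.26 times in the knockdowns. HLA-E relative to HLA-B was 1.05 and 0.50 in the controls and 0.96 to 1.61 in the knockdowns, so these ranges overlapped.

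**Figure D4:**
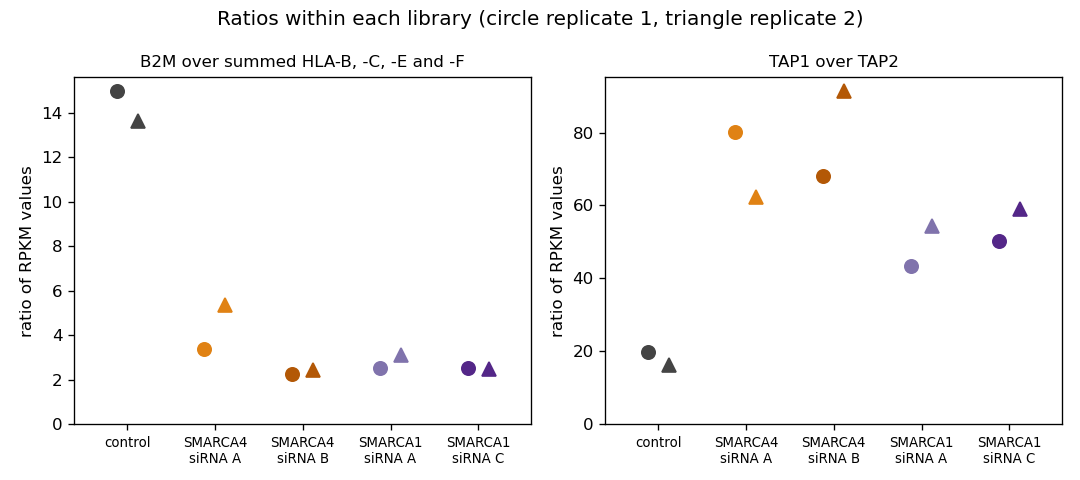
Ratios of RPKM values within each library on linear axes from 0, for B2M over the summed heavy chains (left) and TAP1 over TAP2 (right), with circles for replicate 1 and triangles for replicate 2. The controls lie at 14.95 and 13.64 on the left, above all knockdown libraries, and at 19.9 and 16.3 on the right, below all of them.

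SMARCA4 and SMARCA1 knockdown were next compared with each other, which leaves the control libraries out of the contrast. Only TAPBP of the 9 genes was called, and it was higher in SMARCA4 knockdown, by a log2 difference of 0.42 (SE 0.12, 95% interval 0.15 to 0.69, adjusted p = 0.023). In this comparison 35.4% of all tested genes were called in either direction. Leaving out SMARCA4 siRNA A replicate 1 ended the TAPBP call (0.29), as did leaving out replicate 1 (0.40) or replicate 2 (0.45) of SMARCA1 siRNA C. The ranges of TAPBP overlapped between the knockdowns, at 84.6 to 154 and 64.9 to 123 CPM.

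For the other 8 genes the difference between the knockdowns did not pass the test, and the intervals were wide. The difference was -0.71 for HLA-C (95% interval -1.37 to -0.05, adjusted p = 0.088), -0.65 for HLA-B (-1.48 to 0.17) and -0.44 for HLA-E (-1.21 to 0.33). It was -0.44 for HLA-F (-1.25 to 0.38), -0.36 for B2M (-0.91 to 0.19) and -0.31 for TAP2 (-0.79 to 0.17). NLRC5 (0.44, interval -0.05 to 0.94) and TAP1 (0.25, interval -0.19 to 0.70) had estimates above 0, as TAPBP did. For the heavy chains these intervals reach from -1.48 to 0.38, so the data do not show that the rises were alike. Without SMARCA4 siRNA A replicate 2, the differences of TAP1 (0.49) and NLRC5 (0.72) were larger. Without SMARCA4 siRNA A replicate 1, by contrast, those of HLA-B (-1.27), HLA-C (-1.17), HLA-E (-1.08), HLA-F (-1.09) and B2M (-0.72) lay further below 0. Each of these fits left 1 library in a group, so only the differences are given.

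Within each target, siRNAs were compared as well. SMARCA4 siRNA B gave higher estimates than siRNA A for all 9 genes, from 0.54 for TAPBP to 1.86 for HLA-E on the log2 scale. TAP1 was the gene called, at 1.14 (SE 0.28, 95% interval 0.51 to 1.78, adjusted p = 0.044), where 6.2% of all tested genes were called. HLA-E (adjusted p = 0.057), NLRC5 (1.17, adjusted p = 0.057) and TAP2 (1.09, adjusted p = 0.064) came nearest among the rest. The TAP1 call was lost without SMARCA4 siRNA A replicate 2, without SMARCA4 siRNA B replicate 1 and without SMARCA4 siRNA B replicate 2. Over all alternatives, those with a library left out among them, the TAP1 difference lay between 0.69 and 1.82.

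SMARCA1 siRNA C likewise gave higher estimates than siRNA A for all 9 genes, from 0.67 for HLA-C to 1.12 for NLRC5. The edgeR test called 0 of 9, with 0.0118% of all tested genes called (2 genes). Of the 9, 5 had an unadjusted p below 0.05, and the share of all genes at that level was not counted. DESeq2 called 3 (TAP1, TAPBP and NLRC5) and 470 of the 14221 genes it tested. The 95% intervals were 0.41 to 1.83 for NLRC5, 0.33 to 1.11 for TAPBP and 0.30 to 1.57 for TAP1, and they reached below 0 for all 4 heavy chains.

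**Figure D5:**
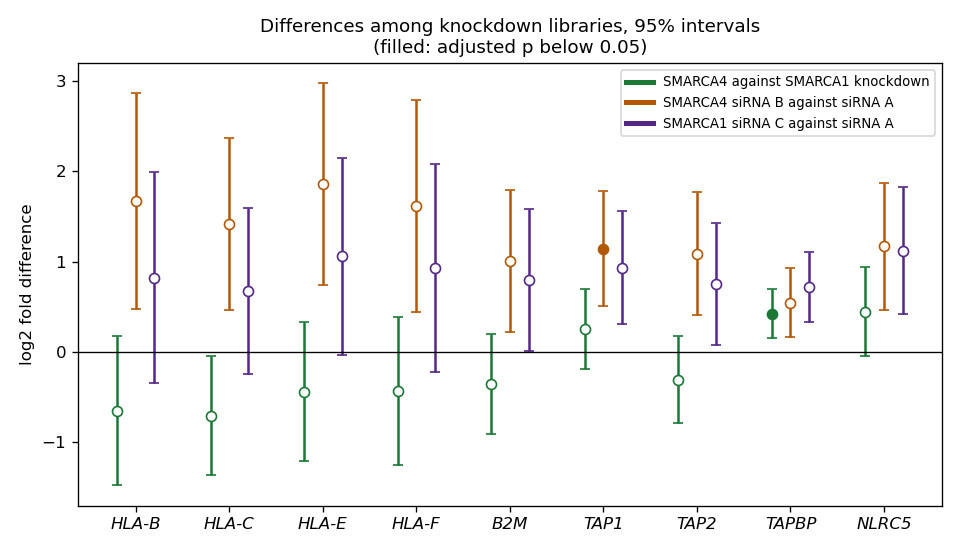
Log2 differences among the knockdown libraries for the 9 genes, with 95% intervals as bars and filled points where the adjusted p is below 0.05. Filled points are TAPBP between the knockdowns (green, 0.42) and TAP1 between the SMARCA4 siRNAs (orange, 1.14), and no SMARCA1 siRNA difference (purple) is filled.

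Other steps of the pathway were read from a list of 32 further genes, of which 31 passed the filter. In SMARCA4 knockdown 15 were called higher and 5 lower, and in SMARCA1 knockdown 15 higher and 3 lower, with median log2 fold changes of 0.43 and 0.32. Over all tested genes, 22.8% were called higher and 22.3% lower in SMARCA4 knockdown, and 23.8% higher and 23% lower in SMARCA1 knockdown, so the genes called lower were no larger a share of the list than of all genes. All 5 genes of the immunoproteasome and its activator rose in both knockdowns. The constitutive catalytic subunits that the inducible ones replace (PSMB5, PSMB6 and PSMB7) were not called, at log2 fold changes of -0.16 to 0.28. PSMB9, an inducible catalytic subunit, went from 2.21 and 2.71 CPM in the controls to 23.97 to 106 CPM in SMARCA4 and 39.1 to 95.1 CPM in SMARCA1 knockdown, and its log2 fold changes were 4.66 (SE 0.42) and 4.75 (SE 0.42). PSMB8 rose by 3.27 and 3.36, PSMB10 by 3.34 and 3.86, PSME1 by 1.24 and 1.87, and PSME2 by 1.99 and 2.08. PSME1 (-0.63, adjusted p = 0.0061) and PSMB7 (-0.44, adjusted p = 0.0063) were called lower in SMARCA4 than in SMARCA1 knockdown.

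Peptide trimming and loading genes moved less evenly. The aminopeptidases of the endoplasmic reticulum rose, ERAP1 by 1.61 in SMARCA4 and 1.71 in SMARCA1 knockdown and ERAP2 by 1.15 and 1.29 on the log2 scale. NPEPPS was called higher only with SMARCA1 knockdown (0.33, adjusted p = 0.012, against 0.20, adjusted p = 0.094), and TPP2 was called lower only with SMARCA4 knockdown (-0.56, adjusted p = 0.012, against -0.34, adjusted p = 0.088), differences between the knockdowns that did not pass the test (adjusted p = 0.17 and 0.19). TAPBPL, a tapasin-related editor of peptides, rose by 2.06 and 2.36. The lectin chaperone CANX (-0.83 and -0.57) and the folding sensor UGGT1 (-0.65 and -1.03) fell in both, and CALR and PDIA3 were not called in either.

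Of 12 listed factors that act at class I promoters, 7 were called higher and 2 lower in SMARCA4 knockdown, and 6 higher and 1 lower in SMARCA1 knockdown, beside 22.8% and 23.8% of all tested genes called higher and 22.3% and 23% called lower. IRF1, an interferon-induced activator, rose by 3.27 and 3.36 on the log2 scale. IRF2 rose by 1.55 and 1.06, and its difference between the knockdowns was called (0.49, adjusted p = 0.0020). The differences of RELA (0.37, adjusted p = 0.0057), NFYC (0.28, adjusted p = 0.021) and RFX5 (0.27, adjusted p = 0.044) were called as well. RFX5, a DNA-binding partner of NLRC5, rose by 0.96 and 0.69, and RELA, NFKB1 and NFYC rose in both knockdowns by 0.32 to 0.69. RFXANK was called higher in SMARCA4 knockdown (0.46, against 0.38 in SMARCA1 knockdown, adjusted p = 0.061) and NFYA lower in SMARCA1 knockdown (-0.33, against -0.25 in SMARCA4 knockdown, adjusted p = 0.064), and the difference between the knockdowns did not pass the test for either (adjusted p = 0.63 and 0.49). RFXAP (-0.49) and NFYB (-0.28) were called lower in SMARCA4 knockdown, and their differences between the knockdowns were called (-0.53 and -0.34, adjusted p = 0.015 and 0.0057), while CREB1 and ATF1 were not called.

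Among class I-like genes, 6 of 8 tested were called higher in each knockdown, beside 22.8% (SMARCA4) and 23.8% (SMARCA1) of all tested genes. MR1, which presents vitamin metabolites with B2M, rose by 1.93 and 2.37. The stress ligands of the receptor NKG2D also rose, ULBP1 by 1.39 and 1.19, ULBP2 by 1.24 and 1.11, ULBP3 by 1.57 and 1.64, and MICB, at 3 counts or fewer in the controls, by 1.85 and 1.94. RAET1E had at most 1 count in a control library and 0.35 to 7.01 CPM in the knockdowns, and it was called lower in SMARCA4 than in SMARCA1 knockdown (-1.64, adjusted p = 0.010). FCGRT, the B2M-pairing Fc receptor, and MICA, another NKG2D ligand, were not called.

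Class II genes, which present peptides from outside the cell, were mostly near the limit of detection. Of 9 tested, 3 were called higher in SMARCA4 and 5 in SMARCA1 knockdown, beside 22.8% and 23.8% of all tested genes. The class II transactivator CIITA had up to 0.19 CPM in the controls and 0.41 to 3.02 CPM in the knockdowns, with log2 fold changes of 4.004 and 3.955. CTSS, a protease of the class II pathway, rose by 4.67 and 5.56 and HLA-DQB1 by 1.20 and 1.56. HLA-DRA and HLA-DMA (0.98) were called in SMARCA1 and not in SMARCA4 knockdown, and the difference between the knockdowns did not pass the test (adjusted p = 0.21 and 0.39). HLA-DRA had 0 counts in the controls and at most 17 in a knockdown library. CD74, the invariant chain, was not called in either.

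Interferon-stimulated genes moved with the class I genes. Of a list of 25, 25 were called higher in each knockdown, beside 22.8% (SMARCA4) and 23.8% (SMARCA1) of all tested genes. Their median log2 fold changes were 7.91 and 8.68, beside 0.0022 and -0.0035 over all tested genes. Their summed level was 273 and 287 CPM in the controls and 14797 to 44750 CPM in the knockdowns. That list and the class I genes are known to respond to the same cytokines, and the part of interferon signaling in the class I rises was not tested.

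For HLA-B, B2M, TAP1 and NLRC5, the genes most similar in pattern were sought among tested genes with a mean of at least 1 CPM. There were 13645 such genes, the class I genes described here included. Those class I genes were left out of the ranking, so their likeness to each other was not ranked. Likeness was the root mean square difference of the log2 ratio to the control mean over the 8 knockdown libraries, which all share those 2 controls. HLA-B was nearest to ISG20 (0.31), GBP3 (0.43) and RP11-206M11.7 (0.45), and B2M to UNC93B1 (0.25), CSF1 (0.27) and OPTN (0.28). TAP1 was nearest to SHFL (0.13), KRT14 (0.15) and NMI (0.25), and NLRC5 to LAMP3 (0.16), RUFY4 (0.33) and RASGRP3 (0.41).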

How the data were processed

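RNA from VCaP cells was sequenced by the authors as strand-specific, paired-end libraries of polyadenylated RNA. Adaptor-trimmed reads were aligned to GRCh38 (hg38) with HISAT2 2.1.0 and counted per gene with featureCounts 1.5.2, versions as given in the submitters' processing notes, on a GENCODE annotation whose release is not given in the sources used here. What the authors deposited are raw, unnormalized counts for each gene of a library. Groups and replicate numbers were taken from the sample labels. The 9 genes and all lists were chosen with earlier results of these data known.

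Counts were filtered with filterByExpr (minimum count 10, minimum total count 15), scaled by TMM (factors 0.963 to 1.03) and 1 model of 5 groups was fitted to them with the quasi-likelihood functions of edgeR 4.0.16 in R 4.3.3. Each knockdown contrast averaged both siRNAs of a target. Benjamini-Hochberg adjustment ran over all 16899 tested genes, with calls at an adjusted p below 0.05. Standard errors are the log2 fold change over the square root of F. CPM and RPKM use TMM-scaled totals and gene lengths of the count tables. The model was tested on simulated data. Counts of each replicate pair varied beyond sampling noise (chi-square per gene 3.57 to 54.5), and each library was counted as 1 replicate. All 9 genes were named, together with the called genes of the other class I pathway, class I-like and class II lists, and the 3 nearest genes of 4 of the 9. Other genes named from marker lists, and the genes not called, were named after their values were seen. A few genes were removed from the lists before counting and are not reported here. Proteins were not compared, and ATAC-seq and other data of the study were not analysed here. Alternatives were DESeq2 1.42.0, other scalings and filters, a replicate block, only the groups compared, a minimum log2 fold change of 0.5 and each library left out.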

Additional observations from a re-analysis of the deposited data

Results flagged for a closer look

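The log2 difference of TAPBP between SMARCA4 and SMARCA1 knockdown, 0.42, was picked out because the test of the difference itself passed the threshold, and it rests on ranges that overlap. The log2 difference of TAP1 between SMARCA4 siRNA B and siRNA A, 1.14, was picked out for the same reason, and both libraries of siRNA B (727 and 604 CPM) lay above both of siRNA A (414 and 188 CPM). It was called in 8 of 13 alternatives, and not with only the groups compared, with the minimum fold change, or without SMARCA4 siRNA A replicate 2 or either library of SMARCA4 siRNA B. TAPBP was called in 13 of 17 alternatives, and not with the minimum fold change or without SMARCA4 siRNA A replicate 1 or either library of SMARCA1 siRNA C.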

How the results depend on the processing

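All 9 genes stayed called higher in each knockdown against control under each of 9 other settings and with each library left out, controls included. Over these alternatives the log2 fold change of HLA-B lay between 4.37 and 5.32 in SMARCA4 and between 5.29 and 5.86 in SMARCA1 knockdown, that of NLRC5 between 5.83 and 6.50 and between 5.73 and 5.84, and that of TAPBP between 1.72 and 1.98 and between 1.31 and 1.55. Where leaving out a library left 1 sample in a group, that sample was assumed to vary like the other groups. Comparisons among knockdown libraries depended on the setting, and the cause was not tested. Between SMARCA4 and SMARCA1 knockdown the number of the 9 genes called was 1, but 8 with no filter on low counts, 3 with a replicate block, 0 with a minimum log2 fold change, and 0 to 5 with a library left out, and the log2 difference of TAP1 lay between -0.070 without SMARCA4 siRNA A replicate 1 and 0.49 without its replicate 2. Between SMARCA4 siRNA B and siRNA A it was 1, but 3 with upper quartile scaling or library size only, 9 with no filter, 2 with a filter of 1 CPM in 2 libraries, 8 with a replicate block, 0 with only the groups compared or a minimum fold change, 5 with DESeq2, and 0 to 9 with a library left out. Between SMARCA1 siRNA C and siRNA A it was 0, but 9 with no filter, 3 with DESeq2 and 0 to 1 with a library left out. Same-numbered libraries deviated together (correlation over 0.1) in 3 of 10 pairs of groups (-0.10 to 0.36), so the numbers were not taken to pair the libraries. The block called HLA-B, HLA-C and TAPBP between the knockdowns and every gene but TAPBP between the SMARCA4 siRNAs. Over all tested genes, calls fell from 7615 to 3040 (SMARCA4) and from 7909 to 3255 (SMARCA1) with the minimum fold change, and from 5982 to 1099 between the knockdowns. In that last comparison no filter gave 6585 calls among 31986 genes, and the block gave 6247 among 16899. Between the SMARCA4 siRNAs, 1048 calls became 2352 with no filter, 36 with the minimum fold change and 212 with only the groups compared. They became 1083 with upper quartile scaling, 1125 with library size only and 1301 with the block. The filter of 1 CPM gave 1185 among 14364 genes, and DESeq2 gave 1564 among 15405. Between the SMARCA1 siRNAs, 2 calls became 1276 with no filter, 470 with DESeq2 and 16 with the block. With a control left out, 4413 or 4913 (SMARCA4) and 4430 or 5094 (SMARCA1) genes were called. Of the scalings tried, the largest shift in the median log2 difference of all genes was -0.078. The 3 and 6 control counts of HLA-F limit its fold change.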

Other observations

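HLA-G, a heavy chain of placental trophoblast, had 0 counts in every library but 1 with SMARCA4 knockdown, which had 1 count. HFE and CD1D, which encode class I-like proteins, had at most 2 and 0 counts in a library.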
